A study of Homo sapiens with 6 samples.

Results

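GJA5 and 4 other connexins, GJA1, GJA3, GJB2 and GJC1, were followed in mRNA sequencing of SK-BR-3, an established HER2-positive breast cancer cell line. They were picked by name because GJA5, best known as a connexin of heart and arteries, was abundant in these cells and lower in the treated group, so their levels and differences are given as a description, with no test. Of the 5 genes, 4 had a row among the 30327 genes of the count table. GJA1 had none and was not analysed here. GJA5 and GJC1 were the 2 members that passed the filter on low counts, which kept 15801 genes.

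The libraries fell into 2 groups of 3. One group came from SK-BR-3 cells given a nontargeting siRNA (si_NC) and the other from SK-BR-3 cells given an siRNA against GRB2 (si_GRB2), an adaptor protein that links receptor tyrosine kinases such as HER2 to Ras signalling. The descriptions of the treated libraries name si_GRB2, whereas their titles and genotype name overexpression of GRB2. The groups here follow the descriptions. The study's methods name a single siRNA against GRB2, its supplementary material lists more, and the labels do not say which was used for sequencing. Nothing in the labels says whether the 3 libraries of a group came from separate cultures, so the p-values below measure the spread between these libraries, which may be technical.

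GRB2 itself (ENSG00000177885.15) measured 123.9, 129.5 and 125.7 CPM (reads on the gene scaled to library size) in si_NC and 27.8, 28.1 and 29.6 CPM in si_GRB2. Every library described as si_GRB2 was thus below every si_NC library, which goes against the titles. Its log2 fold change, si_GRB2 over si_NC, was −2.15 with a standard error (SE) of 0.04 and an edgeR adjusted p = 3.87e-15. Every edgeR adjusted p given here comes from the quasi-likelihood test, with Benjamini-Hochberg adjustment across all tested genes. Reads counted on genes ran from 24810378 to 28532480 per library. A gene was called differentially expressed (DEG) when it differed by more than 1.5-fold in either direction with an adjusted p below 0.01. Of the tested genes 2.52% were DEGs, with 0.829% higher and 1.69% lower in si_GRB2, and the median log2 fold change of all tested genes was 0.0019.

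Connexins are the subunits of gap junctions. A ring of connexins in one membrane forms a hemichannel, and hemichannels of neighbouring cells dock into a channel that passes ions and small metabolites. GJA5 (Cx40) carries the electrical impulse in the atria and the conduction system and couples arterial endothelial cells, and GJC1 (Cx45) is found in the conduction system and in vascular smooth muscle. GJA3 (Cx46) couples the fibre cells of the lens, GJB2 (Cx26) serves the inner ear, the skin and glandular epithelia such as the breast, and GJA1 (Cx43) is the most widespread connexin.

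The first extracellular loop, through which hemichannels dock, holds 3 cysteines in a fixed spacing. The coding bases of this stretch are shown for GJB2 and GJC1, one member from each of the beta and gamma groups, so that they can be compared at a site common to the family. Sequences are from GENCODE 44 on GRCh38, 5′ to 3′ on the coding strand, with the cysteine codons in capitals:
GJB2: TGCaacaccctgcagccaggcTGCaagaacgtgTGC
GJC1: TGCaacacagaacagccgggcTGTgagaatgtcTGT
Both lie on the minus strand, at chr13:20189390-20189425 in GJB2 and chr17:44805626-44805661 in GJC1, and both are exonic and within the coding sequence. The cysteine codons have the same spacing in both, and 26 of the 36 bases are the same. Over the aligned coding sequences, identity with GJA5 was 68.4% for GJA3, 70.0% for GJB2 and 63.2% for GJC1. The longest exact run shared with GJA5 was 23 bases in GJA3, 17 in GJB2 and 13 in GJC1.

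GJA5 (ENSG00000265107.3, chr1:147756199-147773362) was the one member with high counts. Its level was 355.1, 363.1 and 351.1 CPM in si_NC. In si_GRB2 it was 213.5, 214.6 and 215.0 CPM. The highest si_GRB2 library stayed below the lowest si_NC library by a factor of 1.63, so the groups did not overlap. Of all tested genes 21.2% also showed no overlap with lower values in si_GRB2, and nothing is read from that share because GJA5 was picked on this contrast. The means were 356 ± 6.14 CPM and 214 ± 0.792 CPM (SD, n = 3 each). GJA5 was thus 1.66-fold lower in si_GRB2, and its log2 fold change was −0.73 (SE 0.03). In bulk RNA, fewer cells with the transcript and less transcript per cell cannot be told apart.

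**Figure D1:**
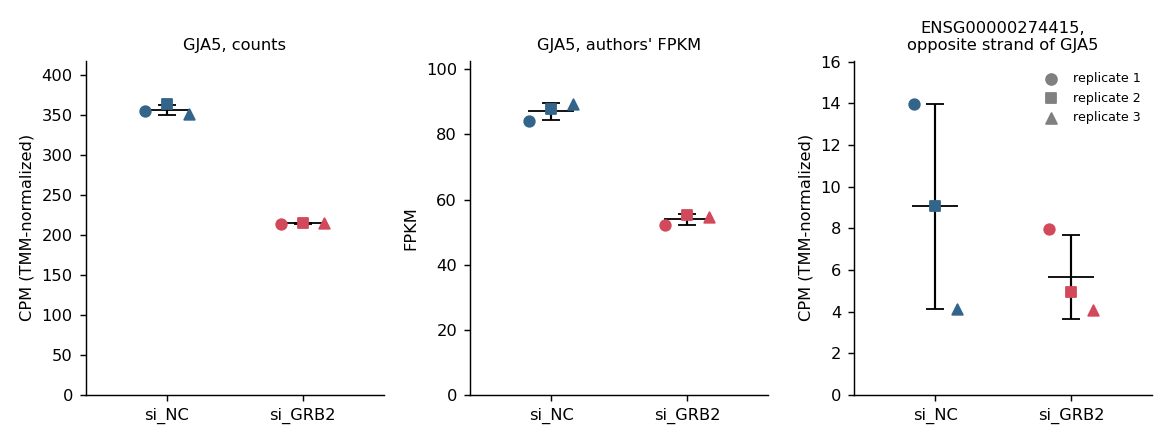
Levels of GJA5 and of the lncRNA on its opposite strand in each library, with GJA5 in CPM (left) and FPKM (middle) and the lncRNA in CPM (right); points are libraries, lines are the means of 3 libraries and bars the SD, and all axes start at 0. The si_GRB2 libraries lie between 213.5 and 215.0 CPM for GJA5, all below the si_NC libraries, whereas the groups of the lncRNA overlap.

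The authors' FPKM, which divide by gene length, gave the same order of libraries by group. GJA5 had 84.1, 87.8 and 89.2 FPKM in si_NC and 52.1, 55.2 and 54.6 FPKM in si_GRB2. The means were 87.1 ± 2.63 and 54.0 ± 1.68 FPKM (SD, n = 3 each), which is 1.61-fold lower in si_GRB2. In FPKM, GJA5 ranked 394th of 29912 genes in si_NC and 712th in si_GRB2. Even in si_GRB2 it was thus above 97.6% of the listed genes. Among the 1941 tested genes with a mean of at least 100 CPM, 8 genes, GJA5 included, had a log2 fold change as low as that of GJA5 or lower. Over all tested genes the number was 280. GJA5 was picked as abundant and lower in si_GRB2, so nothing is read from these ranks.

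The replicates of GJA5 lay close together. The coefficient of variation among libraries was 1.72% in si_NC and 0.37% in si_GRB2, where counting error alone gives 1.02% and 1.34%. The 9 ratios of a si_GRB2 library to a si_NC library ran from 0.588 to 0.612. GJA5 has 3 transcripts in GENCODE 44. The start site of the canonical transcript, of 2 exons and 3177 bases, lies 12.8 kb from those of the other transcripts, and counts per gene do not separate them.

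A lncRNA, ENSG00000274415, overlaps GJA5 on the opposite strand and shares a run of 481 bases with it. It had 13.9, 9.06 and 4.14 CPM in si_NC and 7.95, 4.95 and 4.07 CPM in si_GRB2, so its groups overlapped. The means were 9.05 ± 4.90 and 5.66 ± 2.03 CPM (SD, n = 3 each), a wider spread relative to the mean than that of GJA5. Its log2 fold change was −0.68 (SE 0.31, edgeR adjusted p = 0.108). The sequencing kit kept strand, but whether the counting used it is not stated. The reads of this lncRNA came to 2.57% of those of GJA5, and their part in the GJA5 values was not tested.

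**Figure D2:**
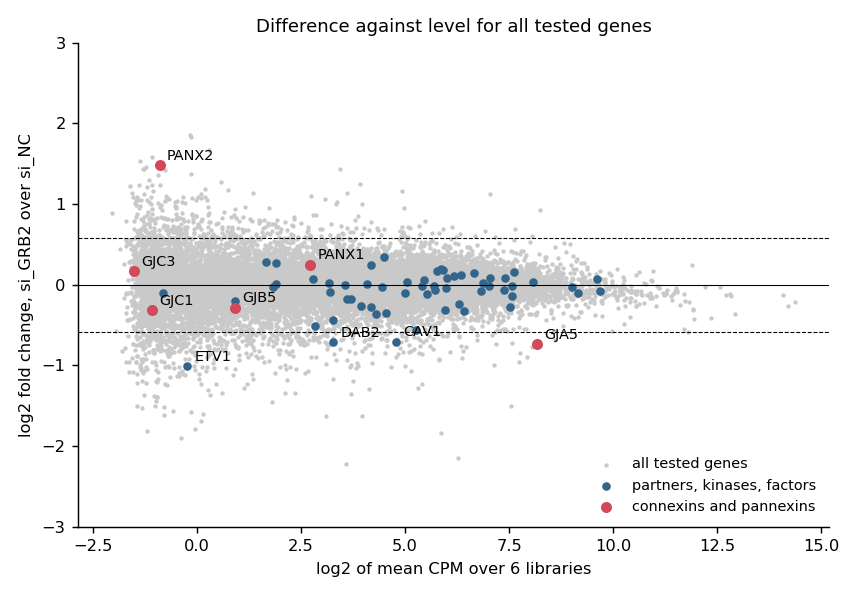
Log2 fold change (si_GRB2 over si_NC) of each tested gene against its mean level in log2 CPM over the 6 libraries, with the connexins described here and the pannexins in red, partners, kinases and factors in blue, all other tested genes in grey, and dashed lines at the fold-change limit; values beyond 3 or −3 are not drawn. GJA5 lies at a log2 fold change of −0.73, far to the right of the other connexins drawn in level.

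The remaining members were at or near the limit of detection. GJC1 (ENSG00000182963.11, chr17:44798448-44830816) had 12, 14 and 17 reads in si_NC and 10, 12 and 11 in si_GRB2. Its groups overlapped. The summed reads were 43 (exact Poisson 95% interval 31.1 to 57.9) and 33 (22.7 to 46.3), and the log2 fold change was −0.31 (SE 0.33). A difference in GJC1 was not detectable at this depth.

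GJB2 (ENSG00000165474.8, chr13:20187463-20192938) had 6, 5 and 4 reads in si_NC and 1, 4 and 1 in si_GRB2, too few to enter the fit. The lowest si_NC library equalled the highest si_GRB2 library. The sums of 15 reads (exact Poisson 95% interval 8.4 to 24.7) and 6 reads (2.2 to 13.1) have intervals that overlap. GJA3 (ENSG00000121743.4, chr13:20138255-20161052), which lies next to GJB2 on the same strand, had 1 read in si_NC replicate 3 and 0 in every other library. The exact Poisson 95% upper limits of its sums were 5.57 reads in si_NC and 3.69 reads in si_GRB2. Both sums lay below 3 reads, so no fold is given for GJA3. These intervals cover counting error only.

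Among the connexins that had a row, the mRNA of these cells was nearly all GJA5. Of 21 human connexin genes, 15 had a row and entered the sums below, and 6, GJA1 among them, were not analysed here. In FPKM, GJA5 made up 97.0%, 97.5% and 96.8% of the summed connexins in si_NC and 95.8%, 96.5% and 96.4% in si_GRB2. The other connexins together came to 2.60 ± 0.345 FPKM in si_NC and 2.10 ± 0.148 FPKM in si_GRB2 (SD, n = 3 each). Their libraries overlapped, with 2.59, 2.26 and 2.95 FPKM in si_NC and 2.27, 2.0 and 2.03 FPKM in si_GRB2. The highest of them was GJB5, at 1.23 FPKM in si_NC. The members GJC1, GJB2 and GJA3 were lower still, with GJC1 at 0.05 FPKM in si_NC and 0.04 FPKM in si_GRB2.

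**Figure D3:**
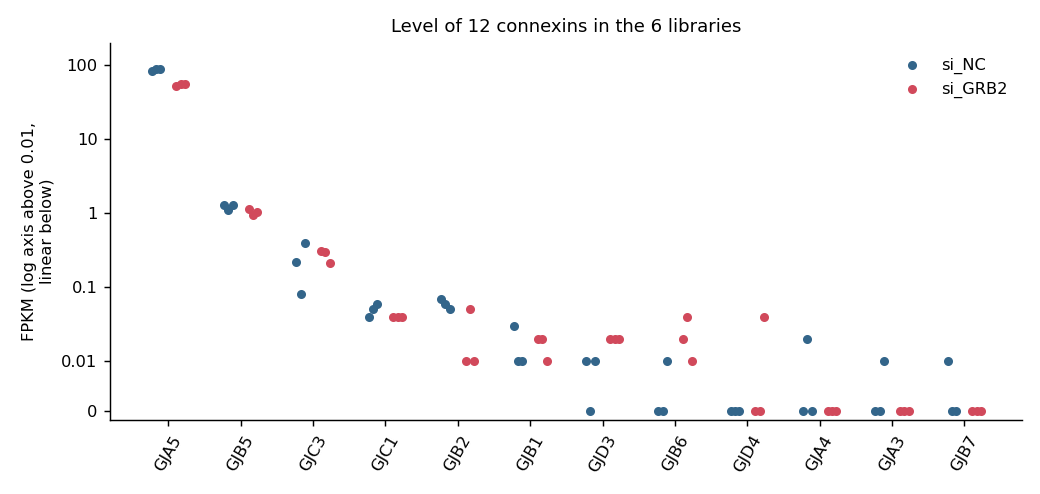
FPKM of 12 connexins in each of the 6 libraries, on an axis that is linear near 0 and logarithmic above; points are libraries. GJA5 lies at 52.1 FPKM or more in all 6 libraries, and the means of the other connexins drawn are at most 1.23 FPKM.

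Among the connexins that were not members, values are given for GJB5, an epidermal connexin, and GJC3, a glial connexin. GJB5 had 63, 48 and 58 reads in si_NC and 49, 41 and 42 in si_GRB2, so the groups overlapped. Its log2 fold change was −0.29 (edgeR adjusted p = 0.284). GJC3 had 3 to 15 reads per library, and its log2 fold change was 0.17 (edgeR adjusted p = 0.834). Neither was a DEG by edgeR. GJB5 was no DEG by DESeq2 either, and DESeq2 gave no adjusted p for GJC3. Of the 12 connexins drawn, 8 had too few reads for the fit, GJB2 and GJA3 among them, with 1 to 21 reads in total over the 6 libraries.

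Pannexins form single-membrane channels unrelated in sequence to connexins, and 2 of 3 were tested. PANX1, the ATP release channel found in most tissues, had 175, 156 and 161 reads in si_NC and 171, 201 and 186 in si_GRB2, and its log2 fold change was 0.25 (edgeR adjusted p = 0.0825). PANX2 had 9, 5 and 9 reads in si_NC and 24, 24 and 14 in si_GRB2. It was a DEG, at a log2 fold change of 1.48 (SE 0.36, edgeR adjusted p = 0.00481). The PANX2 call was lost without si_NC replicate 2 (edgeR adjusted p = 0.0318), without si_GRB2 replicate 1 (0.0287) and without si_GRB2 replicate 2 (0.0271). Both pannexins were far below GJA5 in reads.

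Connexins are anchored by scaffold and adhesion proteins, carried to the membrane by vesicles and microtubules, and removed by endocytosis and ubiquitin-dependent sorting. Of 16 tested scaffold and adhesion partners, 1 was a DEG, against 2.52% of all tested genes. Their median log2 fold change was −0.0003. With no limit on the fold change, 9 (56.2%) had an adjusted p under 0.05, against 30.6% of all tested genes. The DEG was CAV1, caveolin, a coat protein of membrane caveolae that binds connexins. CAV1 had 33.6, 34.7 and 34.1 CPM in si_NC and 21.7, 20.2 and 20.8 CPM in si_GRB2, and its log2 fold change was −0.71 (SE 0.05, edgeR adjusted p = 2.4e-08). The most abundant partner was JUP, plakoglobin of adherens junctions and desmosomes, at 844 CPM in si_NC and 798 CPM in si_GRB2 (log2 fold change −0.08, adjusted p = 0.0236, edgeR). CDH1, the epithelial cadherin, had 9 reads in all 6 libraries together and was not tested.

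All 18 trafficking and turnover genes were tested, and 1 was a DEG, against 2.52% of all tested genes. It was DAB2, a clathrin adaptor, with 12.6, 11.4 and 12.1 CPM in si_NC and 7.23, 6.81 and 7.98 CPM in si_GRB2. Its log2 fold change was −0.71 (SE 0.09, edgeR adjusted p = 1.66e-05). AP2M1, a subunit of the same endocytic coat and the most abundant of the list, had a log2 fold change of −0.10 (edgeR adjusted p = 0.00576). The median of the list was −0.04, and 8 genes (44.4%) had an adjusted p under 0.05, against 30.6% of all tested genes. The partner and trafficking lists thus held 1 DEG each, too few to set against the share of all tested genes. Most of their genes differed by less than the fold-change limit.

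**Figure D4:**
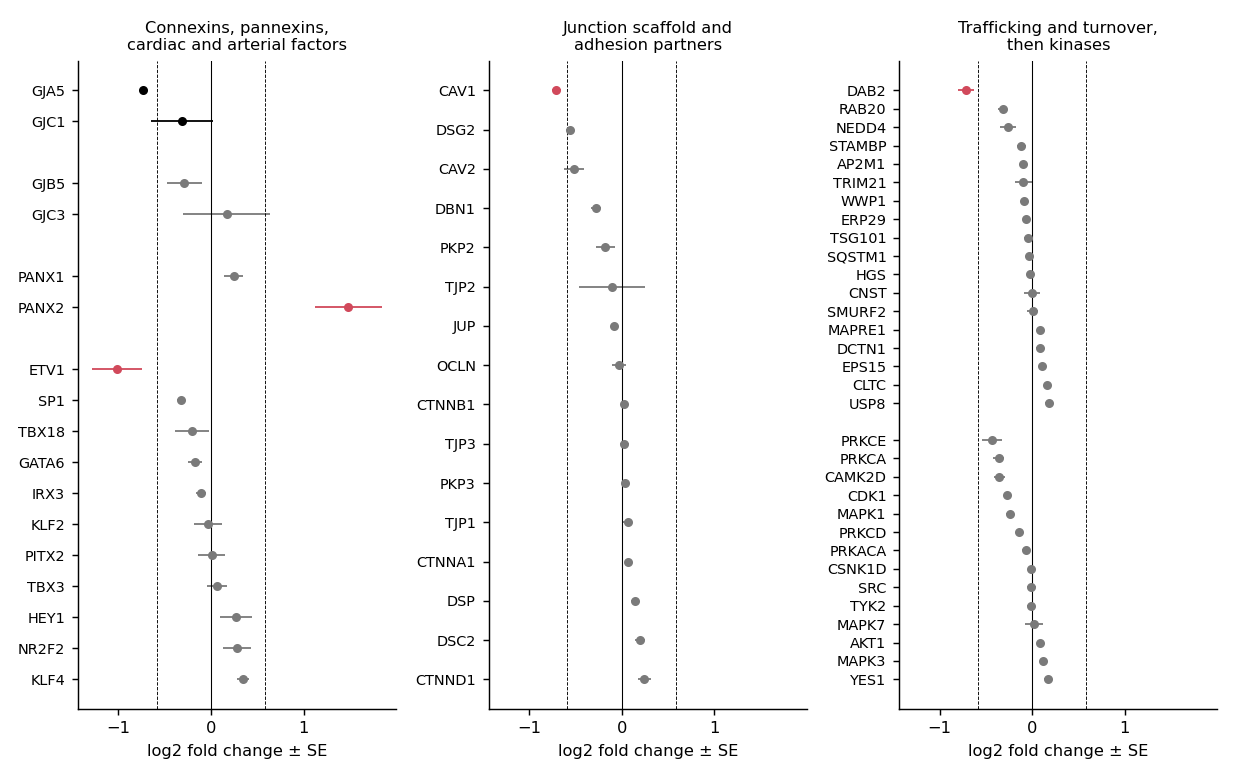
Log2 fold change (si_GRB2 over si_NC, x axis) with its standard error, by gene (y axis). Genes are those given here of the connexin lists and each tested gene of the pannexin, partner, trafficking, kinase and transcription factor lists. Red marks DEGs, grey other tested genes and black the members, for which no p-value is given. GJA5 lies at −0.73, CAV1 and DAB2 at −0.71, and most genes of the lists within the fold-change limit.

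Kinases phosphorylate the tails of connexins and set their assembly and gating. Of 14 tested connexin kinases, 0 were DEGs by edgeR's quasi-likelihood test, against 2.52% of all tested genes, and 0 by DESeq2. With edgeR, 9 kinases had an unadjusted p under 0.05, against 39.4% of all tested genes. An adjusted p under 0.05 was reached by 8 (57.1%) with edgeR, against 30.6%. Their median log2 fold change was −0.04. The most abundant was CSNK1D, casein kinase 1 delta, at a log2 fold change of −0.02 (edgeR adjusted p = 0.732). Without si_GRB2 replicate 2, 1 kinase, PRKCE, passed both limits at a log2 fold change of −0.60. It was named after its value was seen.

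In heart and artery, GJA5 is controlled by T-box, homeobox, GATA and Notch-pathway factors. Of 19 listed cardiac and arterial factors, of these and other classes, 15 had a row and 11 could be tested. TBX5, TBX20, NKX2-5 and SOX17 were not analysed here, and GATA4 had 1 read. Of the 11 tested factors, 1 was a DEG, against 2.52% of all tested genes. It was ETV1, a factor of fast-conducting heart muscle, with 30, 28 and 35 reads in si_NC and 14, 19 and 11 in si_GRB2. Its log2 fold change was −1.01 (SE 0.27, edgeR adjusted p = 0.00893). That call was lost in each of the 6 fits that left out 1 library, whether an si_NC replicate (adjusted p of 0.0152, 0.0254 and 0.0293 without replicates 1, 2 and 3) or an si_GRB2 replicate (0.0304, 0.0131 and 0.0491, edgeR). SP1, a general activator of promoters rich in GC and the most abundant factor of the list, had 94.2 CPM in si_NC and 75.0 CPM in si_GRB2, and its log2 fold change was −0.33 (edgeR adjusted p = 3.91e-06). The median of the list was −0.03.

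The markers of the cell types in which GJA5 is known were compared with those of the line. Of 8 cardiomyocyte markers 7 had a row, and 6 of them had 1 to 14 reads in total, among them MYH6 with 2 reads and MYL7 with 1. Their summed level was 2.35 to 3.21 CPM in si_NC and 2.34 to 3.56 CPM in si_GRB2. It was mostly TNNT2, cardiac troponin T, at a log2 fold change of −0.05 (edgeR adjusted p = 0.877). The cardiomyocyte list was thus far below GJA5 in both groups.

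Of 8 endothelial markers, 7 had a row and 3 were tested. PECAM1 had 3 reads in all libraries together, KDR 3 and CLDN5 2. CDH5, the cadherin of endothelial junctions, was a DEG, with 27.2, 28.6 and 29.4 CPM in si_NC and 18.8, 20.5 and 16.2 CPM in si_GRB2. Its log2 fold change was −0.61 (SE 0.07, edgeR adjusted p = 5.56e-06), and it was short of the fold-change limit at −0.53 without si_GRB2 replicate 3. It was also short of that limit at −0.56 with library size only, −0.44 with limma on log2(FPKM + 1) and −0.56 with log2(FPKM + 0.1). The summed endothelial level, mostly CDH5, was 33.2 to 34.7 CPM in si_NC and 21.6 to 25.3 CPM in si_GRB2. The other tested markers were EGFL7, with 318 reads in si_NC and 319 in si_GRB2 (log2 fold change 0.07, edgeR adjusted p = 0.757), and VWF, von Willebrand factor, with 115 and 77 reads (log2 fold change −0.50, edgeR adjusted p = 0.178). The lower sum in si_GRB2 thus rested on CDH5, and its part in the GJA5 values was not tested. The summed fibroblast level overlapped between groups, at 4.07 to 5.96 CPM in si_NC and 4.49 to 5.21 CPM in si_GRB2.

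The markers of a HER2-positive luminal line were abundant, at 19590 to 20060 CPM in si_NC and 16370 to 17050 CPM in si_GRB2 summed over 7 genes. Of these 7, 0 were DEGs by edgeR's quasi-likelihood test, against 2.52% of all tested genes, and 0 by DESeq2. All 7 had an unadjusted p under 0.05 with edgeR, against 39.4% of all tested genes. All 7 also had an adjusted p under 0.05, against 30.6%. KRT8, a keratin of luminal epithelium, was the highest, at 5969 CPM in si_NC and 4492 CPM in si_GRB2 (log2 fold change −0.41). ERBB2, which encodes HER2, had 3499 and 4140 CPM (log2 fold change 0.24). ESR1, the oestrogen receptor gene, had 1.04 and 1.37 CPM, and PGR had 3 reads in all. The defining markers of the labelled line were thus present. The 6 markers other than ERBB2 were lower in si_GRB2, as GJA5 was, and their part in the GJA5 values was not tested.

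Position on the chromosome played no part in the choice of members, so the 3 nearest tested genes on each side of GJA5, GJA3, GJB2 and GJC1 were examined. Of 18 distinct neighbours, 0 were DEGs by edgeR's quasi-likelihood test, against 2.52% of all tested genes. By DESeq2, 0 of the 11 with an adjusted p were DEGs. With edgeR, 4 had an unadjusted p under 0.05, against 39.4% of all tested genes, and 3 an adjusted p under 0.05, against 30.6%. The nearest neighbours of GJA5 were ACP6, a mitochondrial lysophosphatidic acid phosphatase at a distance of 85.7 kb, and GPR89B at 155 kb. ACP6 had 15.4 CPM in si_NC and 12.8 CPM in si_GRB2, and its log2 fold change was −0.27 (SE 0.07, edgeR adjusted p = 0.00614). GPR89B had a log2 fold change of 0.10 (edgeR adjusted p = 0.487). BCL9, a Wnt cofactor beyond ACP6 named after its value was seen, had 16.8 CPM in si_NC and 23.1 CPM in si_GRB2, and its log2 fold change was 0.46 (edgeR adjusted p = 2e-05). ACP6 and BCL9, both on the side of lower coordinates, thus differed in direction.

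**Figure D5:**
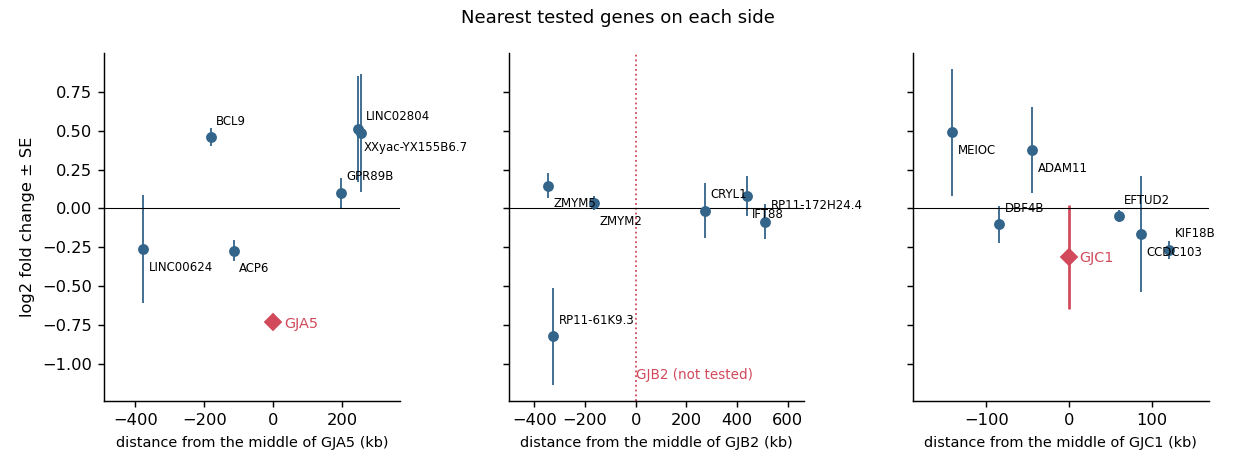
Log2 fold change (si_GRB2 over si_NC, y axis) of the 3 nearest tested genes on each side of GJA5, GJB2 and GJC1 against the distance of their midpoints from the connexin in kb (x axis); bars are standard errors, red diamonds are GJA5 and GJC1, and GJB2, with too few reads for the fit, is a dotted line. At GJA5, ACP6 lies at −0.27 and BCL9 at 0.46, against −0.73 for GJA5.

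GJA3 and GJB2 share their neighbours. ZMYM2, a zinc finger gene, lies 46.4 kb from GJA3 and 95.6 kb from GJB2 and had a log2 fold change of 0.04 (edgeR adjusted p = 0.602). CRYL1, on the other side, had a log2 fold change of −0.02 (edgeR adjusted p = 0.963). At GJC1, ADAM11 lies 16.6 kb away at a log2 fold change of 0.37 (edgeR adjusted p = 0.353). EFTUD2, a spliceosome gene 19.1 kb away on the other side, had a log2 fold change of −0.05 (edgeR adjusted p = 0.375).

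The genes whose levels were most like GJA5 over the 6 libraries were found by the root-mean-square distance of log2 CPM, each gene centred on its si_NC mean, among tested genes with a mean of at least 5 CPM. They were SEC23IP at a distance of 0.024, TPD52L2 at 0.0286, NSF at 0.0349, TALDO1 at 0.0364 and CAV1 at 0.0407. This is a description, since a gene lower by a like amount must be close. SEC23IP, which acts at the sites where vesicles leave the endoplasmic reticulum, had 42.2, 43.5 and 43.3 CPM in si_NC and 25.5, 25.2 and 26.2 CPM in si_GRB2. NSF, the ATPase that takes apart vesicle fusion complexes, was at −0.76 in log2 fold change. TPD52L2 was at −0.73 and TALDO1, a pentose phosphate enzyme, at −0.77. None of the 5 lies on chromosome 1 with GJA5. With Pearson's correlation as the measure, 0 of these 5 were among the 5 most alike.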

How the data were processed

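The authors trimmed reads with FASTX-Toolkit, aligned them to GRCh38 with HISAT2, kept uniquely mapped reads, and deposited the count of reads per gene, not normalized, and FPKM. The counting tool, annotation release and use of strand are not given in the sources used here. Members and lists were chosen with earlier results of these data known.

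TMM factors and CPM were derived from the deposited counts with edgeR 4.0.16 under R 4.3.3. After filterByExpr, 15801 genes remained. The contrast of si_GRB2 against si_NC, 3 libraries each, was tested by quasi-likelihood (glmQLFTest) without covariates, adjusting by Benjamini-Hochberg over those genes. Alternatives included DESeq2 1.42.0, DESeq2's size factors, library size only, other filters on low counts, limma 3.58.1 on log2(FPKM + 1) and log2(FPKM + 0.1), a replicate block, an adjusted p under 0.05, and each library left out. Gene positions and sequences came from GENCODE 44 (GRCh38), in which 99.7% of gene identifiers were found. Coding bases were compared in place of proteins. Named genes were GRB2, the members, the tested connexins and pannexins, the DEGs and most abundant gene of each list, the nearest neighbours and the 5 genes most like GJA5. No pair of replicates looked like 1 library deposited again. Depth was 24810378 to 28532480 reads per library. The values of some connexins and sequences are not reported here, and the connexin sums include all rows.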

Additional observations from a re-analysis of the deposited data

How the results depend on the processing

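No alternative was added after the data were seen. The log2 fold change of GJA5 ran from −0.75 to −0.68 over 14 alternatives, from −0.75 to −0.73 with each library left out, and was −0.68 with library size only, −0.68 with limma on log2(FPKM + 1) and −0.69 with log2(FPKM + 0.1). The limma fits changed the unit, the method and the pseudocount together, and the FPKM means without a pseudocount were already 1.61-fold apart. That of GJC1 ran from −0.45 to −0.20 with each library left out, and was −0.014 and −0.10 with the pseudocounts of 1 and 0.1, where 43 and 33 reads limit it. GJA5 made up 98.3% and 97.9% of connexin CPM in si_NC and si_GRB2.

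The 398 DEGs became 95 (31 higher, 64 lower) with log2(FPKM + 1), 261 (154 lower) with log2(FPKM + 0.1) and 4838 with an adjusted p under 0.05 and no fold limit. Each library left out gave 321 to 420. With log2(FPKM + 1), the pannexins, partners, trafficking genes and transcription factors had 0 DEGs each, and with log2(FPKM + 0.1) the pannexins and transcription factors had 0. The pannexins also had 0 with at least 10 counts in every library, and the transcription factors 0 with library size only. PANX2, with 9, 5 and 9 reads in si_NC, did not enter the fit with at least 10 counts in every library. The cause of the other losses was not tested. Each library left out gave 0 to 1 for the pannexins, 0 to 1 for the kinases and 0 for the transcription factors. An adjusted p under 0.05 with no fold limit gave 9 partners (56.2%), 8 trafficking genes (44.4%), 8 kinases (57.1%) and 3 transcription factors (27.3%). The share of all tested genes was 30.6%. DESeq2 gave no adjusted p for PANX2, ETV1 and GJC3. Among the named genes outside the members, 20 refits fell short of a limit that the gene had passed, all of them of PANX2, ETV1, CDH5, CAV1 or DAB2, and no called gene changed sign.

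A fit with a replicate block gave −0.73 for GJA5 and 459 DEGs, 398 of them shared with the fit without it. The deviations of same-numbered replicates from their group means had correlations of 0.232, −0.0948 and 0.0804. Those of replicates with different numbers ran from −0.282 to 0.228. No pairing by number was evident, but deviations from means of 3 libraries depend on each other and cannot exclude it.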
